A study of Mus musculus with 12 samples.

Results

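The integrin and laminin genes are 32 of the 54532 genes in a table of RNA-seq read counts from mouse kidney. They were picked by a rule on gene symbols, set with earlier results of these data known. Rows named Itga with a number (with or without a b), Itgav, Itgb1 to Itgb8, or Lama, Lamb or Lamc with a number were taken. The rule took 13 integrin alpha genes, 8 integrin beta genes and 11 laminin genes, of which 31 genes (10 of them laminins) are reported, and left out the integrin alpha genes named with other letters (Itgad, Itgae, Itgal, Itgam and Itgax). Whole kidneys of 12 mice aged 18 days, of the C57BL/6 strain by the labels, made up 4 groups of 3. Every mouse carried 1 Pkd1 RC allele, a missense change (arginine to cysteine) that lowers the amount of mature polycystin 1. In the 6 noncystic mice the other Pkd1 allele was functional (Pkd1 RC/+, a floxed allele without Cre), and in the 6 cystic mice it was removed by Ksp-Cre (Pkd1 RC/-). Ksp-Cre is Cre under the promoter of Ksp-cadherin, a gene of kidney tubule epithelium. The deletion is thus directed at tubule cells and not at the vessels, interstitium or blood cells of the same organ. Which cells lost the allele was not checked in these data. In each set of 6, 3 mice had unedited Pkd2 (Pkd2+/+) and 3 were homozygous for Pkd2Δ17, an allele edited with CRISPR so that its 3′-UTR lacks the miR-17 binding motif. Mice are numbered 19 to 30 as in the labels, 19 to 21 being noncystic Pkd2+/+, 22 to 24 noncystic Pkd2Δ17/Δ17, 25 to 27 cystic Pkd2+/+ and 28 to 30 cystic Pkd2Δ17/Δ17. The question put to these genes was how they differ between cystic and noncystic kidneys, and how the Pkd2 motif deletion moves them in each setting.

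Laminins are heterotrimers of 1 alpha, 1 beta and 1 gamma chain that polymerize into the first sheet of a basement membrane, the layer on which each tubule, vessel and glomerulus rests. Integrins are receptors made of 1 alpha and 1 beta subunit, which span the cell membrane and tie that layer, collagens, fibronectin or other cells to the cytoskeleton. In the kidney the integrin that pairs the alpha3 subunit with the beta1 subunit binds laminin under podocytes and tubules, and the pair of alpha8 with beta1 is needed for the ureteric bud to enter the kidney rudiment. Mutations in Lamb2, in Lama5 and in Itga3 cause glomerular or tubular disease, and altered basement membranes are a long known feature of cystic kidneys.

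The edited motif is a target of the miR-17 seed, so the same motif was looked for in the longest annotated 3′-UTR of each member. The mature miRNA is printed first with its seed in capitals (RefSeq, build GRCm38.p6). The unedited Pkd2 site and one site of each member that had one outside Lama3 follow, from the GENCODE M21 transcripts of GRCm38, with the match in capitals. They show an 8-base match in Pkd2, Itga4 and Itgb8 and only a 7-base match in Lamc1. Lama3, whose site is not printed, also held an 8-base match.
mmu-miR-17-5p: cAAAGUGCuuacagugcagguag
Pkd2: ttgttataattttctGCACTTTAatttatt
Itga4: cagattataaatatcGCACTTTAgctgata
Itgb8: gagactagtgttgtaGCACTTTAttgtaat
Lamc1: ccccatctagttcctGCACTTTgtggctct

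The match in Pkd2 lies on chromosome 5 from 104503821 to 104503828 on the forward strand and starts at base 133 after the stop codon. That of Itga4 lies at 79327747 to 79327754 of chromosome 2 (forward strand), that of Itgb8 at 119162898 to 119162905 of chromosome 12 (reverse strand) and that of Lamc1 at 153220321 to 153220327 of chromosome 1 (reverse strand). Of the members, 4 held the 7-base match GCACTTT (Itga4, Itgb8, Lama3 and Lamc1), and of 16767 tested genes with an annotated 3′-UTR 13.1% did. The 8-base match GCACTTTA, which contains the 7-base one, was in 3 members and in 4.0% of those genes, and only the sense strand was searched. The members' own windows were not edited in these mice, and a match describes letters of the transcript, not binding. The 4 genes moved in no common direction, since between cystic and noncystic Pkd2+/+ kidneys Itga4 and Lamc1 rose, Itgb8 fell and Lama3 was not called.

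Total counts ran from 18800307 to 24453033 reads per mouse, and the member with the fewest reads in any mouse, Itga11, had 13 there. All 32 members passed the cutoff on low values, an average log2CPM of at least -3, which 24642 genes of the table passed. Levels are given as CPM, read counts scaled to library size and, by TMM, to library composition, and levels of different genes are compared only as CPM per kb of exon. Pkd2 stood at 194 to 233 CPM in the 6 Pkd2+/+ mice and at 271 to 337 CPM in the 6 Pkd2Δ17/Δ17 mice. Pkd1 stood at 50.4 to 77.5 CPM in the 6 noncystic and at 66.0 to 81.6 CPM in the 6 cystic mice, and reads counted over the whole gene do not check a deletion in part of the cells. A gene was called when edgeR's quasi-likelihood test over all 12 mice gave an adjusted p (Benjamini-Hochberg over 24642 genes) under 0.05. Log2 fold changes are given with their standard error (SE) from that fit. By that test Pkd2 was called higher with the motif deleted in cystic kidneys (0.53, SE 0.08, adjusted p = 0.00249). In noncystic kidneys it was not called (0.40, SE 0.08, adjusted p = 0.771). The noncystic groups nevertheless did not overlap, at 194 to 219 CPM with Pkd2+/+ and 271 to 286 CPM with Pkd2Δ17/Δ17. The missing call therefore does not show that Pkd2 was unchanged there.

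Among the beta subunits, Itgb1, the common partner of most alpha subunits, made up most of the message, with 143 ± 7.67 CPM per kb (SD, n = 3) in noncystic Pkd2+/+ kidneys, or 62.9 ± 1.47% of all integrin beta message per length. Itgb5 followed with 54.2 ± 2.69 CPM per kb, and Itgb6, Itgb8 and Itgb4 with 13.4 ± 1.66, 11.7 ± 1.04 and 2.41 ± 0.124. The leukocyte beta subunits Itgb2 (1.05 ± 0.231) and Itgb7 (0.940 ± 0.477) and the platelet and vascular subunit Itgb3 (0.625 ± 0.0112) were the lowest. Within this order Itgb6 and Itgb8 did not differ beyond their spread, nor did Itgb7 and either of its neighbours. Among the alpha subunits Itga6, a laminin receptor subunit, led with 25.8 ± 1.71 CPM per kb. Itga3 (19.4 ± 1.15), the other main laminin receptor subunit of epithelia, and Itgav (13.1 ± 1.5), the partner of several beta subunits, came next, and Itga11 was the lowest with 0.149 ± 0.0175. The laminin chains of highest level were Lamb1 (39.2 ± 2.41), Lamc1 (25.9 ± 1.75), Lamb2 (25.5 ± 1.01) and Lama5 (20.8 ± 2.30 CPM per kb), of which Lamc1 and Lamb2 did not differ beyond their spread.

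Between cystic and noncystic Pkd2+/+ kidneys 16 of the 31 members were called, 12 higher and 4 lower. Over all tested genes 31.1% were called, 16.9% higher and 14.2% lower (4170 and 3495 genes, against 6251 and 2468 with library totals as the scaling). By family, 7 of 10 laminin genes (5 higher, 2 lower), 4 of 8 integrin beta genes (3 higher, 1 lower) and 5 of 13 integrin alpha genes (4 higher, 1 lower) were called. The median log2 fold change was 0.23 for the laminins, 0.33 for the beta subunits, 0.06 for all 31 members and 0.02 for all tested genes. All cystic values lay on one side of all noncystic ones for 17 members, the 16 called ones and Itgb3 (log2 fold change 0.40, adjusted p = 0.13), and for 41.7% of all tested genes. In whole kidney RNA, a change in the number of cells of a type and a change in RNA per cell cannot be told apart.

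**Figure D1:**
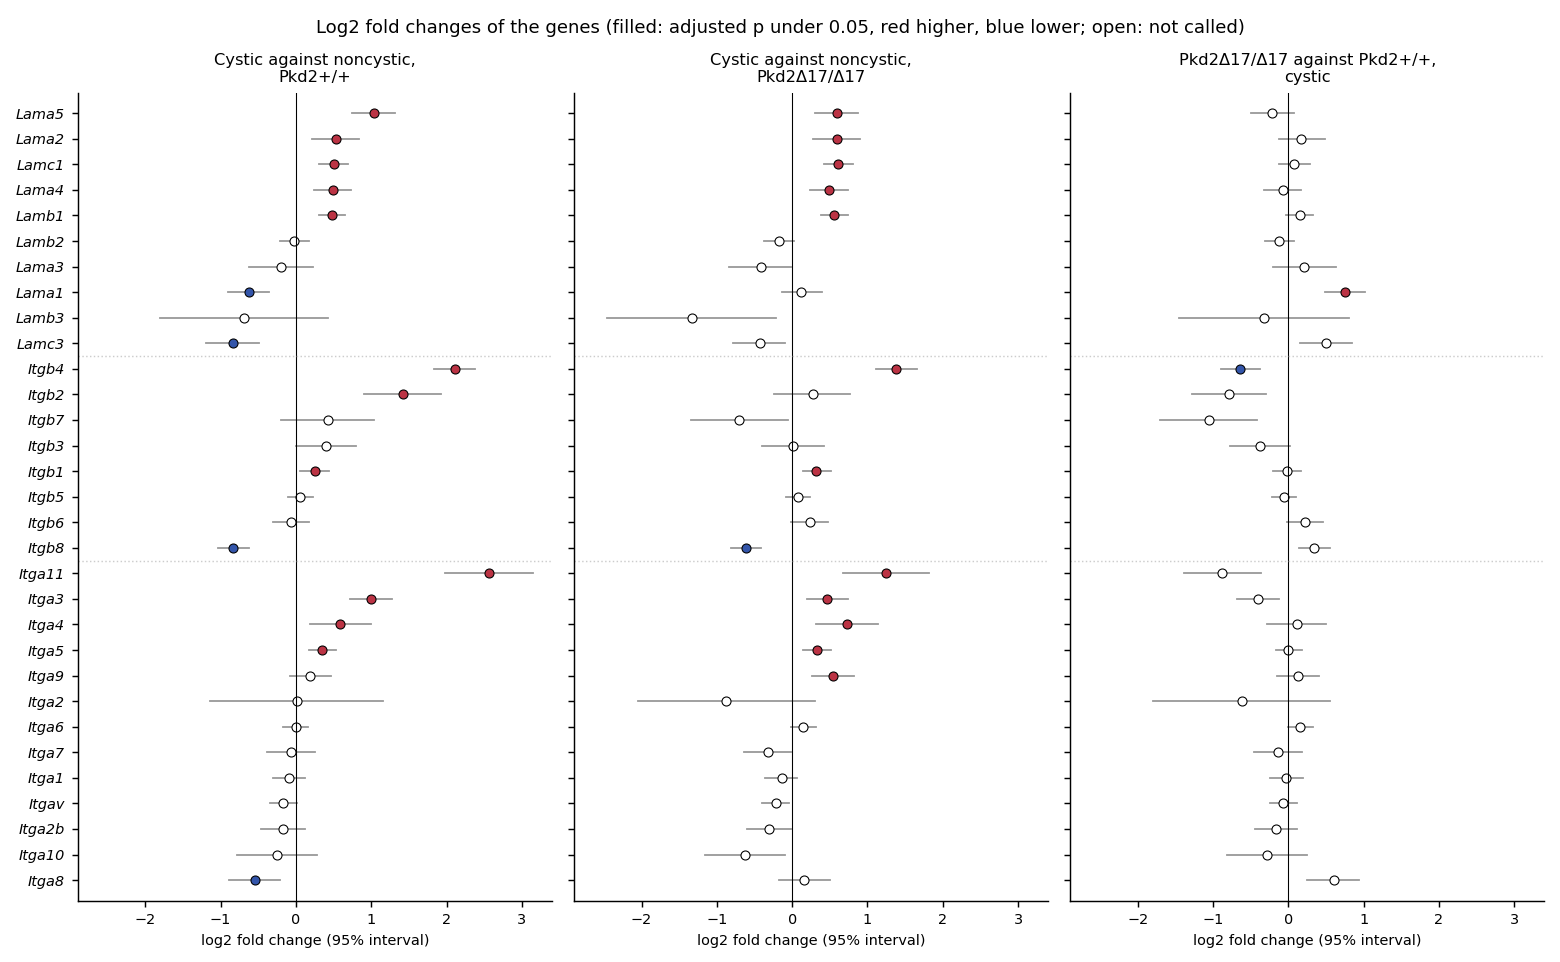
Log2 fold change of each of the 31 genes (points) with its 95% interval (lines) from edgeR, for cystic against noncystic kidneys with Pkd2+/+ (left) and with Pkd2Δ17/Δ17 (middle), and for Pkd2Δ17/Δ17 against Pkd2+/+ in cystic kidneys (right). Filled points were called (red higher, blue lower). In the left panel 16 points are filled, in the middle 13 and on the right only Lama1 and Itgb4.

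Itgb4, whose long cytoplasmic tail anchors hemidesmosomes to keratins, had the smallest p of the members. In noncystic Pkd2+/+ kidneys it stood at 17.2, 16.0 and 17.7 CPM, and in cystic Pkd2+/+ kidneys at 70.5, 71.5 and 76.8 CPM. Every cystic mouse was thus above every noncystic one, and the log2 fold change was 2.11 (SE 0.13, adjusted p = 1.6e-08), or 4.3-fold. With Pkd2Δ17/Δ17 it stood at 15.2, 21.7 and 16.9 CPM in noncystic and at 38.1, 51.1 and 51.1 CPM in cystic kidneys, again without overlap (log2 fold change 1.38, SE 0.13, adjusted p = 1.78e-06). Itgb4 (chromosome 11, 115974709 to 116008412, forward strand, GRCm38) shares 7.66% of its exon bases with B230344G16Rik on the opposite strand. Since the strand setting of the counting is not given in the sources used here, reads from those bases cannot be told apart. Itga6, the alpha subunit known to pair with Itgb4, had a log2 fold change of 0.00 (95% interval -0.17 to 0.16) between cystic and noncystic Pkd2+/+ kidneys, and stood at 233 ± 9.23 CPM in the former and 233 ± 15.4 CPM in the latter (SD, n = 3). Per kb, Itgb4 message was 2.41 ± 0.124 against 25.8 ± 1.71 for Itga6 in noncystic Pkd2+/+ kidneys, and 10.4 ± 0.487 against 25.8 ± 1.02 in cystic ones. Itgb4 thus stayed below Itga6 in both, and the gap narrowed through Itgb4.

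**Figure D2:**
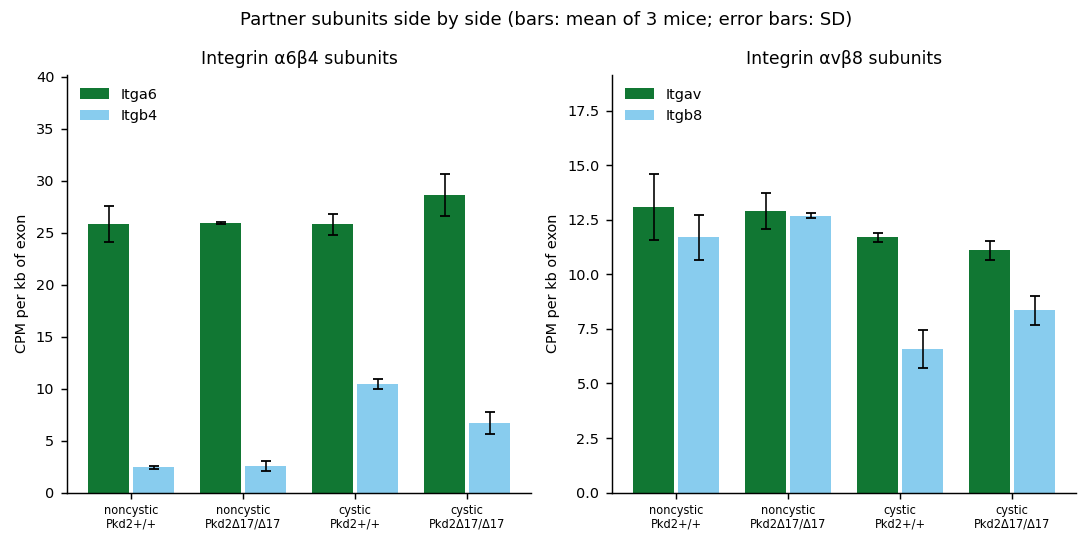
CPM per kb of exon for subunits that form 1 protein complex: the integrin of the alpha6 and beta4 subunits (left) and the integrin of the alphav and beta8 subunits (right). Bars are means of 3 mice and error bars SD. Between noncystic and cystic Pkd2+/+ kidneys Itgb4 rose from 2.41 to 10.4 beside Itga6 at 25.8, and Itgb8 fell from 11.7 to 6.57 beside Itgav at 13.1 and 11.7.

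Itga3, which with beta1 binds the laminins that hold the alpha5 or alpha3 chain, stood at 105, 118 and 109 CPM in noncystic and at 190, 242 and 231 CPM in cystic Pkd2+/+ kidneys. The groups were well apart, and the log2 fold change was 1.0 (SE 0.13, adjusted p = 1.61e-05), or 2.0-fold. In Pkd2Δ17/Δ17 mice the values were 101, 121 and 141 CPM in noncystic and 137, 175 and 188 CPM in cystic kidneys. Here the lowest cystic mouse was below the highest noncystic one, and the log2 fold change was 0.46 (SE 0.13, adjusted p = 0.0149), which lost its call when any one of mice 22, 23, 29 or 30 was left out (0.34 to 0.45). Itga7, the laminin receptor subunit of muscle, was not called in either comparison (-0.07 and -0.32). Itgb1 rose by 0.25 (SE 0.09, adjusted p = 0.0391) and 0.32 (SE 0.09, adjusted p = 0.0131) on the log2 scale. The first of these calls was lost in 9 of 14 alternative settings.

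Among the laminin alpha chains, Lama5, the main alpha chain of mature tubule and glomerular basement membrane, rose in both comparisons. It stood at 255, 206 and 248 CPM in noncystic and at 539, 425 and 485 CPM in cystic Pkd2+/+ kidneys, a log2 difference of 1.03 (SE 0.14, adjusted p = 1.77e-05) without overlap. In Pkd2Δ17/Δ17 mice the values were 223, 306 and 300 against 349, 466 and 432 CPM, and the log2 fold change was 0.59 (SE 0.13, adjusted p = 0.00382). Both sets of cystic mice were therefore above their noncystic counterparts, by 2.04-fold and 1.51-fold.

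Lama1, the alpha chain of embryonic basement membrane and, in the adult kidney, of tubule basement membrane, went the other way in Pkd2+/+ kidneys. It stood at 34.7, 32.7 and 39.8 CPM in noncystic and at 23.8, 23.3 and 22.1 CPM in cystic mice, and fell by 0.63 on the log2 scale (SE 0.13, adjusted p = 0.000952). In Pkd2Δ17/Δ17 mice it was not called, with 36.3, 32.9 and 38.0 CPM in noncystic and 38.2, 47.3 and 31.2 CPM in cystic kidneys (log2 fold change 0.12, SE 0.13, adjusted p = 0.552). The 3 cystic Pkd2+/+ mice were the lowest of all 12, and the other 9 mice overlapped.

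Lama2, the alpha chain of muscle and interstitial cells, had log2 fold changes of 0.53 (adjusted p = 0.0116) and 0.59 (adjusted p = 0.00756) with Pkd2+/+ and with Pkd2Δ17/Δ17. The first value rested partly on mouse 26 and was 0.29 without it, with the call lost. That call was also lost without mouse 19, a noncystic mouse. Lama4, the alpha chain of vessels, rose by 0.49 in each (adjusted p = 0.00383 and 0.00523). Lama3, the alpha chain of stratified epithelia, was not called, at -0.20 (95% interval -0.62 to 0.22) and -0.42 (adjusted p = 0.14).

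Lamb1 and Lamc1, the beta and gamma chains of most embryonic and interstitial laminins, rose together. Lamb1 rose by 0.48 (SE 0.08, adjusted p = 0.000308) and 0.56 (SE 0.08, adjusted p = 0.000113) on the log2 scale, and Lamc1 by 0.50 (adjusted p = 0.000569) and 0.61 (adjusted p = 0.000137). Lamb2, the beta chain of the mature glomerular basement membrane, was not called, at -0.02 (95% interval -0.21 to 0.17) and -0.18, nor was Lamb3, a beta chain of epithelial laminin, at -0.69 (95% interval -1.80 to 0.42) and -1.33 (adjusted p = 0.085). Lamc3, a gamma chain of vessels and nerves, fell in Pkd2+/+ kidneys from 13.4, 18.5 and 19.7 to 7.59, 11.6 and 9.84 CPM, a log2 difference of -0.84 (SE 0.16, adjusted p = 0.000804). With Pkd2Δ17/Δ17 Lamc3 stood at 18.4 ± 1.91 CPM against 13.6 ± 0.729 CPM (SD, n = 3). These groups did not overlap either, though the log2 fold change of -0.43 was not called (adjusted p = 0.0679) in the main test and was called in 4 of 14 alternative settings.

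In Pkd2+/+ kidneys these changes shifted the mix of laminin alpha and beta chains. As a share of its chain class per length, Lama5 went from 70.4, 64.7 and 67.5% of alpha chain message in noncystic to 83.2, 75.3 and 80.6% in cystic Pkd2+/+ kidneys, and Lama1 from 11.3, 12.1 and 12.7% to 4.33, 4.86 and 4.32%. None of these shares overlapped between the groups. In the beta class Lamb1 went from 58.2 ± 2.55 to 67.0 ± 3.30% and Lamb2 from 38.0 ± 0.182 to 31.1 ± 4.65% (SD, n = 3), also without overlap. With the motif deleted the Lama5 share overlapped between noncystic and cystic kidneys (70.0 ± 4.19 and 74.2 ± 3.83%). The other shares did not overlap there: Lama1 went from 10.8 ± 1.70 to 8.19 ± 1.41%, Lamb1 from 58.3 ± 3.19 to 71.1 ± 1.89% and Lamb2 from 37.3 ± 0.409 to 27.4 ± 1.77%. With 3 mice a group an exact permutation test cannot give a p under 0.1, so the shares are descriptions.

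**Figure D3:**
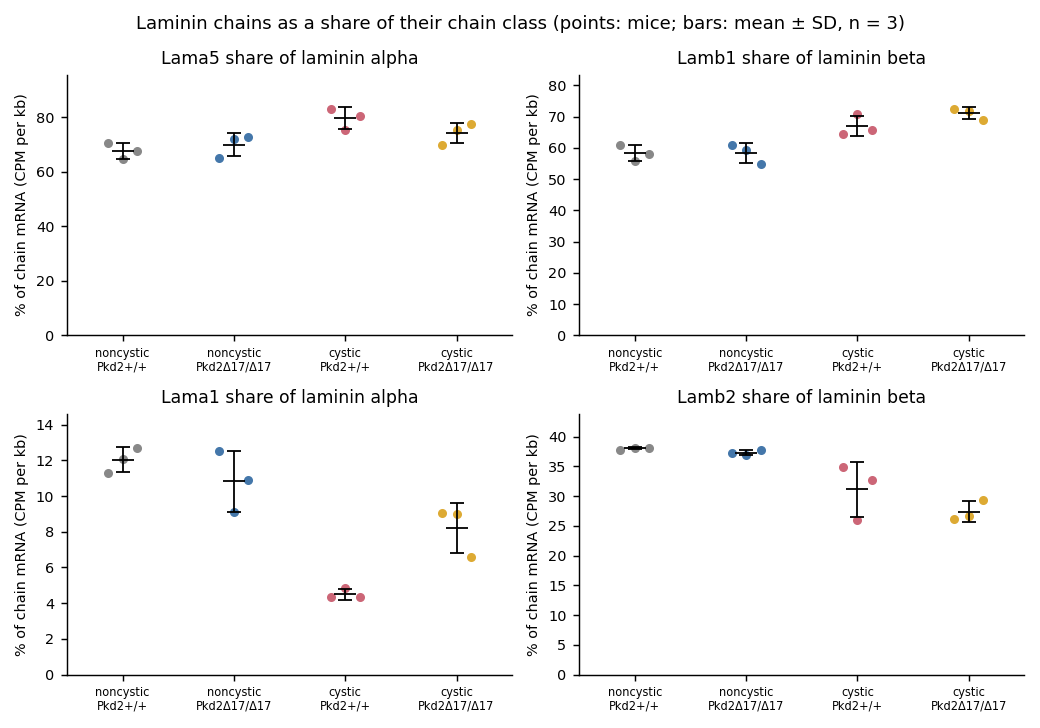
Share of 2 laminin alpha and 2 laminin beta chains in their chain class, in percent of the summed CPM per kb, by mouse (points) with mean and SD (n = 3). In cystic Pkd2+/+ kidneys Lama5 and Lamb1 take a larger share and Lama1 and Lamb2 a smaller one than in noncystic Pkd2+/+ kidneys, and for Lama1 the cystic Pkd2Δ17/Δ17 mice lie between the cystic Pkd2+/+ and the noncystic groups.

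The collagen receptor subunits were split. Itga11, a collagen receptor subunit of fibroblasts, stood at 0.831, 0.798 and 0.661 CPM in noncystic and at 3.45, 5.29 and 4.90 CPM in cystic Pkd2+/+ kidneys. This was the largest log2 fold change of the members, at 2.56 (SE 0.28, adjusted p = 2.34e-06), on the lowest level. Without the Pkd2 motif it stood at 1.20, 0.927 and 0.990 against 1.87, 2.89 and 2.65 CPM (log2 fold change 1.24, SE 0.27, adjusted p = 0.00272). All 6 cystic mice were above all 6 noncystic mice. Itga1, the most abundant of these receptors, was not called, at 155 ± 12.7 CPM in noncystic and 146 ± 15.9 CPM in cystic Pkd2+/+ kidneys, nor were Itga10 (-0.25, adjusted p = 0.505) and Itga2. Itga10 shares 33.5% of its exon bases with Gm42957 on the same strand, so its counts are uncertain. A list of 8 fibroblast and mural cell markers, with none at 0, had 4 called higher and 2 lower in the Pkd2+/+ comparison. Over all tested genes 16.9% were called higher there and 14.2% lower. Its summed level was 2002 to 2182 CPM in noncystic and 3051 to 4746 CPM in cystic Pkd2+/+ kidneys, and 1720 to 2088 against 2854 to 3837 CPM with the motif deleted. Its part in the rise of Itga11, Lama2 and Lama4 was not tested.

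The receptors that read the RGD sequence of fibronectin and nephronectin were Itga5, Itga8, Itgav and Itga2b. Itga5, the fibronectin receptor subunit, rose by 0.35 (SE 0.08, adjusted p = 0.00391) and 0.33 (SE 0.08, adjusted p = 0.00823) on the log2 scale, from 34.1 ± 2.47 to 43.6 ± 2.30 CPM in the former (SD, n = 3). Itga8 stood at 58.3, 67.3 and 50.4 CPM in noncystic and at 29, 49.7 and 41.8 CPM in cystic Pkd2+/+ kidneys, with 59.8, 45.9 and 56.9 against 64.2, 64.9 and 52.6 CPM with the motif deleted. It fell by 0.55 in the first comparison (SE 0.16, adjusted p = 0.015), a call lost with library totals (-0.39), with limma-trend (-0.41), without mouse 20 (-0.46) and without mouse 25 (-0.36), and was not called in the second (0.16). Npnt, the gene of its ligand nephronectin, named here after its values were seen, had a log2 difference of 0.75 (SE 0.09, adjusted p = 1.01e-05) in Pkd2+/+ kidneys. Itgav was not called, at -0.17 (95% interval -0.34 to 0.01) and -0.22 (adjusted p = 0.0714), and Itga2b, the platelet subunit, at -0.17 and -0.31.

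Of the partners of Itgav, Itgb8, which with Itgav releases active TGF-beta from its latent complex, fell in both comparisons. It stood at 139, 117 and 131 CPM in noncystic and at 82.2, 73.1 and 62.7 CPM in cystic Pkd2+/+ kidneys, a log2 difference of -0.83 (SE 0.10, adjusted p = 4.81e-06). Without the Pkd2 motif the values were 141, 139 and 142 against 98.0, 94.7 and 84.3 CPM (-0.61, SE 0.10, adjusted p = 0.000172). The 6 cystic mice were below the 6 noncystic mice throughout, and Itgb8 was the only member that the main test called lower in both comparisons. Itgb6, the epithelial subunit with the same ligand, was not called (-0.07 and 0.23), nor were Itgb5 (0.06 and 0.08) and Itgb3 (0.40 and 0.01). In the same kidneys 7 of 8 podocyte markers and 5 of 8 endothelial markers were called lower in the Pkd2+/+ comparison, and 1 podocyte marker higher, and 5 of each list were lower with Pkd2Δ17/Δ17. Over all tested genes 14.2% were called lower with Pkd2+/+ and 10.2% with Pkd2Δ17/Δ17. The podocyte sum was 731 to 866 CPM in noncystic and 393 to 463 CPM in cystic Pkd2+/+ kidneys, and 741 to 818 against 473 to 626 CPM with the motif deleted. The endothelial sum was 735 to 810 against 514 to 559 CPM, and 730 to 786 against 544 to 663 CPM. No marker of either list was at 0, and their part in the fall of Itgb8, Itga8 and Lamc3 was not tested.

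The leukocyte subunits differed from one another. Itgb2, the beta subunit shared by the integrins of neutrophils, macrophages and lymphocytes, stood at 2.80, 2.79 and 4.02 CPM in noncystic and at 9.37, 6.80 and 9.56 CPM in cystic Pkd2+/+ kidneys, a log2 difference of 1.42 (SE 0.24, adjusted p = 0.000202). In Pkd2Δ17/Δ17 mice it stood at 4.96, 4.04 and 3.41 against 4.47, 3.81 and 6.64 CPM. Those groups overlapped, and the log2 fold change of 0.27 (95% interval -0.24 to 0.77) was not called. The alpha subunits that pair with Itgb2 lie outside the symbol rule, among the 5 named with other letters, of which 4 passed the cutoff. Itgax (2.14, adjusted p = 6.03e-05), Itgam (1.22, adjusted p = 0.0185) and Itgal (0.79, adjusted p = 0.0248) were called higher in Pkd2+/+ kidneys. Itgae, which pairs with Itgb7 instead, was not called (-0.68, adjusted p = 0.214). All 8 macrophage markers were called higher in both comparisons, with sums of 148 to 159 against 357 to 518 CPM in Pkd2+/+ and 136 to 165 against 267 to 352 CPM in motif-deleted kidneys. Over all tested genes 16.9% were called higher with Pkd2+/+ and 12.8% with the motif deleted. The 8 lymphocyte markers (2 called higher and 1 lower with Pkd2+/+) summed to 8.15 to 11.2 CPM in noncystic and 5.96 to 8.1 CPM in cystic Pkd2+/+ kidneys. With the motif deleted their sums were 8.02 to 13.7 against 6.4 to 7.09 CPM. The 6 neutrophil markers, of which 4 passed the cutoff and 0 were called (edgeR), summed to 0.577 to 2.5 CPM over all mice. The part of these cells in the level of Itgb2 was not tested.

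Itgb7, the partner of the lymphocyte subunits Itga4 and Itgae, was not called in either comparison (0.42 and -0.70). Itga4, a subunit of leukocytes and mesenchyme that binds Vcam1 and fibronectin, rose by 0.59 (SE 0.19, adjusted p = 0.0272) and 0.73 (SE 0.19, adjusted p = 0.0102) on the log2 scale. The first of these was lost in 7 of 14 alternative settings and stood at 0.38 without mouse 26. Itga9, which binds tenascin and osteopontin, stood at 0.54 (SE 0.13, adjusted p = 0.0063) with the motif deleted, where it was called, and at 0.19 (adjusted p = 0.301) with Pkd2+/+. The latter value was 0.01 without mouse 26, and was called with library totals (0.35) and without mouse 25 (0.36, adjusted p = 0.0118). That difference between the comparisons was not past the test of the interaction (0.34, adjusted p = 0.664). For the platelet list, 1 of 6 markers was at 0 in every mouse and 5 passed the cutoff, 1 of them called higher in both comparisons, with sums of 4.22 to 14.1 CPM.

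**Figure D4:**
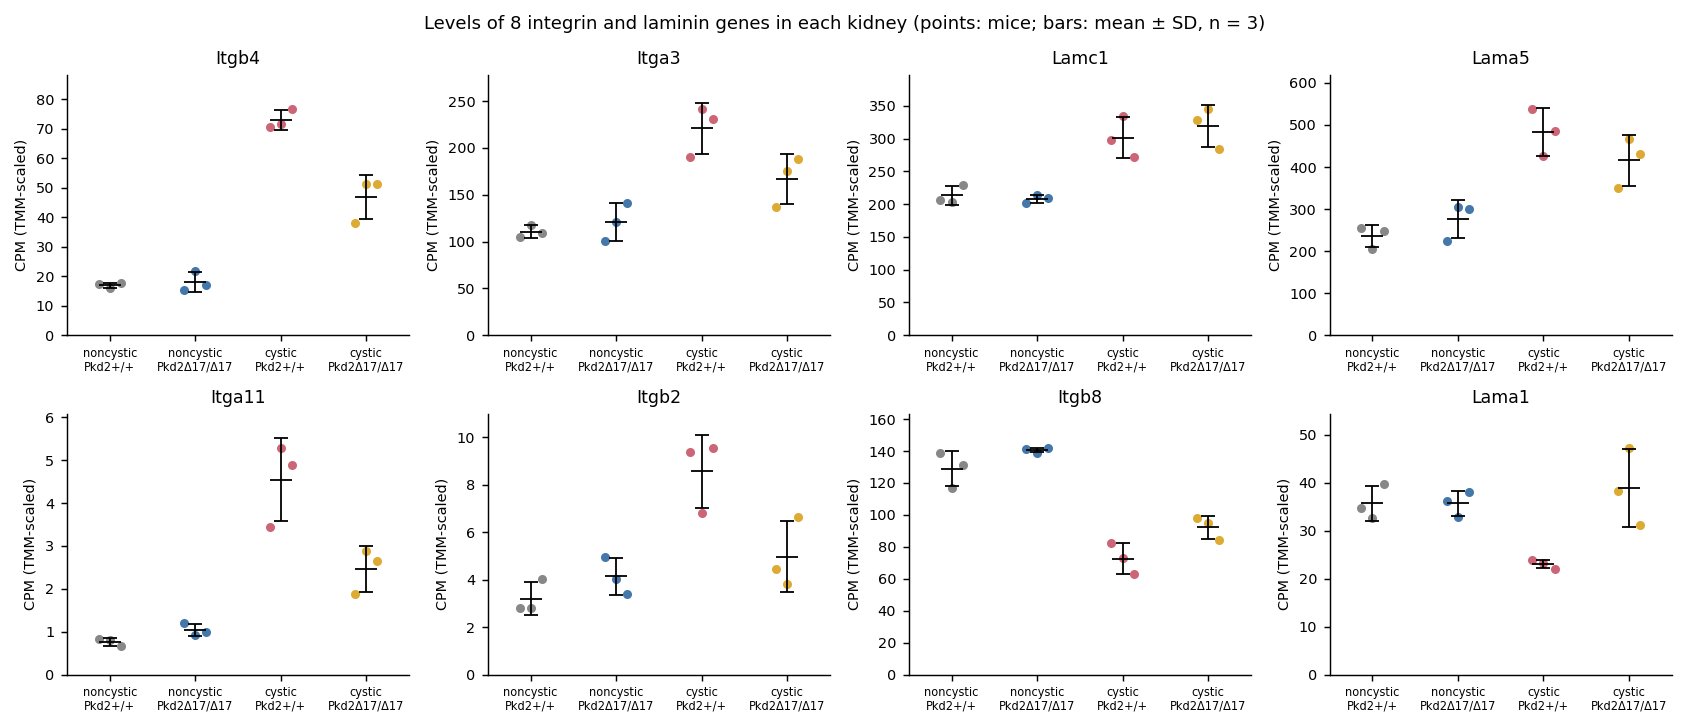
CPM of 8 members in each mouse (points), with the mean and SD of each group (n = 3), each panel on its own axis from 0. The cystic Pkd2+/+ mice stand apart from both noncystic groups in every panel. The cystic Pkd2Δ17/Δ17 mice lie between them for Itgb4, Itga11 and Itgb8 and overlap the noncystic mice for Itga3, Itgb2 and Lama1.

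With Pkd2Δ17/Δ17, cystic and noncystic kidneys differed in 13 of the 31 members, 12 higher and 1 lower. Over all tested genes 23% were called, 12.8% higher and 10.2% lower (3164 and 2515 genes, against 5334 and 1657 with library totals). The 12 higher were 11 of the 12 that were called higher in Pkd2+/+ kidneys and Itga9, and the 1 lower was Itgb8. The 4 members called with Pkd2+/+ alone were Itgb2, Itga8, Lama1 and Lamc3. The comparisons use different mice, and the interaction, which tests their difference, called none of these.

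The Pkd2 motif deletion itself, tested between the cystic groups, called 2 of the 31 members, Lama1 higher and Itgb4 lower. Over all tested genes 2.23% were called, 1.19% higher and 1.04% lower, and the median log2 fold change was -0.06 for the members and 0.00 for all genes. Lama1 (chromosome 17, 67697259 to 67822647, forward strand) rose from 23.8, 23.3 and 22.1 CPM in cystic Pkd2+/+ to 38.2, 47.3 and 31.2 CPM in cystic Pkd2Δ17/Δ17 kidneys. Its log2 fold change of 0.75 (SE 0.13, adjusted p = 0.00639), or 1.69-fold, remained called in all 14 alternative settings. Itgb4 fell from 70.5, 71.5 and 76.8 CPM to 38.1, 51.1 and 51.1 CPM, with a log2 difference of -0.64 (SE 0.12, adjusted p = 0.0142). The call was lost without mouse 27 (-0.60) and without mouse 28 (-0.51), with an adjusted p of up to 0.0772. Neither gene's groups overlapped.

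The groups did not overlap for 7 more members that missed the threshold, 9 of 31 in all, against 19% of all tested genes. Itga11 (-0.88, adjusted p = 0.0759), Itgb7 (-1.06, adjusted p = 0.0826), Itgb2 (-0.79, adjusted p = 0.0959) and Itga3 (-0.41, adjusted p = 0.124) had lower values in cystic Pkd2Δ17/Δ17 kidneys. Itga8 (0.60, adjusted p = 0.0674), Itgb8 (0.34, adjusted p = 0.0761) and Lamc3 (0.50, adjusted p = 0.141) had higher ones. These 9 members were also those with an unadjusted p under 0.05, as were 14.3% of all tested genes. Itgb7 stood at 3.10, 3.43 and 3.91 CPM in cystic Pkd2+/+ and at 1.30, 1.96 and 1.73 CPM in cystic Pkd2Δ17/Δ17 kidneys, on 27 to 83 reads per mouse over the 12 mice.

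Of the 16 members called between cystic and noncystic Pkd2+/+ kidneys, 12 did not have the same sign for the deletion in cystic kidneys. For 1 of these 12, Itga5, the deletion value rounds to 0.00, and the others had the opposite sign. The 2 contrasts share the 3 cystic Pkd2+/+ mice, so opposite signs are favoured by that sharing and carry no test. Side by side, the log2 fold changes of cystic against noncystic and of the deletion were 2.11 and -0.64 for Itgb4, 1.03 and -0.22 for Lama5, and -0.63 and 0.75 for Lama1. Others had a smaller value for the deletion, with 0.48 and 0.15 for Lamb1, 0.50 and 0.08 for Lamc1 and 0.35 and 0.00 for Itga5.

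Marker lists also differed between the cystic groups. Over all tested genes 2.23% were called between these groups, 1.19% higher and 1.04% lower with the motif deleted. Of 8 macrophage markers 4 were called lower with the motif deleted, of 6 tubule injury markers 3 lower (237 to 357 against 102 to 214 CPM, none at 0) and of 6 thick ascending limb markers 3 higher (1806 to 2520 against 3470 to 3577 CPM, none at 0). Of 8 collecting duct markers, none at 0, 1 was called lower, with sums of 2189 to 3816 against 1690 to 2495 CPM, and of 8 proximal tubule markers, none at 0, 2 higher (2723 to 4111 against 3705 to 5096 CPM). In noncystic Pkd2+/+ kidneys the collecting duct sum was 1271 to 1415 CPM and the proximal tubule sum 7599 to 9632 CPM. The part of these cell types in the values of Itgb4, Itga3, Lama5 and Lama1 was not tested.

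In noncystic kidneys the deletion called 0 of the 31 members in edgeR, limma-trend and DESeq2, with 1 member (Lama3, 0.44, adjusted p = 0.771) at an unadjusted p under 0.05, where 6.31% of all tested genes were. Over all genes 0.00406% were called there. The groups did not overlap for 3 members, Itga11, Itga9 and Itgb8, against 10.8% of all tested genes, and the log2 fold changes ran from -0.21 to 0.44. Itgb4 (0.08) was close to 0, and Lama1 differed by 0.00 (SE 0.13).

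The interaction, which tests whether the deletion acts differently in cystic and noncystic kidneys, called 0 of the 31 members in edgeR and 0.0122% of all genes. At an unadjusted p under 0.05 there were 8 of the 31 members and 8.33% of all tested genes. The lowest adjusted p was that of Lama1 (0.75, SE 0.18, adjusted p = 0.18), followed by Itgb4 (-0.72, SE 0.18, adjusted p = 0.234). Limma-trend called none, and DESeq2's Wald test called Lama1 and Itgb4. The main test therefore does not show that the deletion acts differently in the 2 settings for any member.

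Lamb3 and Itga2 varied widely within groups, and the main test called neither in any comparison. With the motif deleted Lamb3 was called lower in cystic kidneys in 4 of 14 alternative settings (with no cutoff, with Xist as a covariate, with only the compared groups and without mouse 22) and Itga2 in 1 (no cutoff). In Pkd2+/+ kidneys Lamb3 was called in 1 (no cutoff), and its value ran from -1.45 to -0.17 over the settings. Lamb3 stood at 6.08, 26.6 and 17.4 CPM in noncystic Pkd2+/+ kidneys, at 8.83, 17.7 and 36.0 CPM in noncystic Pkd2Δ17/Δ17 kidneys, at 4.53, 18.9 and 7.77 CPM in cystic Pkd2+/+ kidneys and at 6.92, 9.15 and 8.75 CPM in cystic Pkd2Δ17/Δ17 kidneys. Itga2, a collagen receptor subunit of epithelia and platelets, stood at 2.18, 6.84 and 4.63 CPM, at 1.74, 7.09 and 7.54 CPM, at 2.01, 9.11 and 2.73 CPM and at 2.45, 3.91 and 2.55 CPM in the same order. In each of the first 3 groups the same mouse was lowest for both genes. A sum of 6 markers of urothelium (Upk1a, Upk1b, Upk2, Upk3a, Krt5 and Psca), a list added after the values of Lamb3 were seen, ran from 73.7 to 202, from 92.1 to 145, from 11.5 to 144 and from 43.0 to 88.3 CPM. Its lowest mice in the first 3 groups were again the same ones, whereas in cystic Pkd2Δ17/Δ17 kidneys mouse 28 had the highest sum and the lowest Lamb3 and Itga2. No marker was at 0, and its part in the spread of Lamb3 and Itga2 was not tested.

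**Figure D5:**
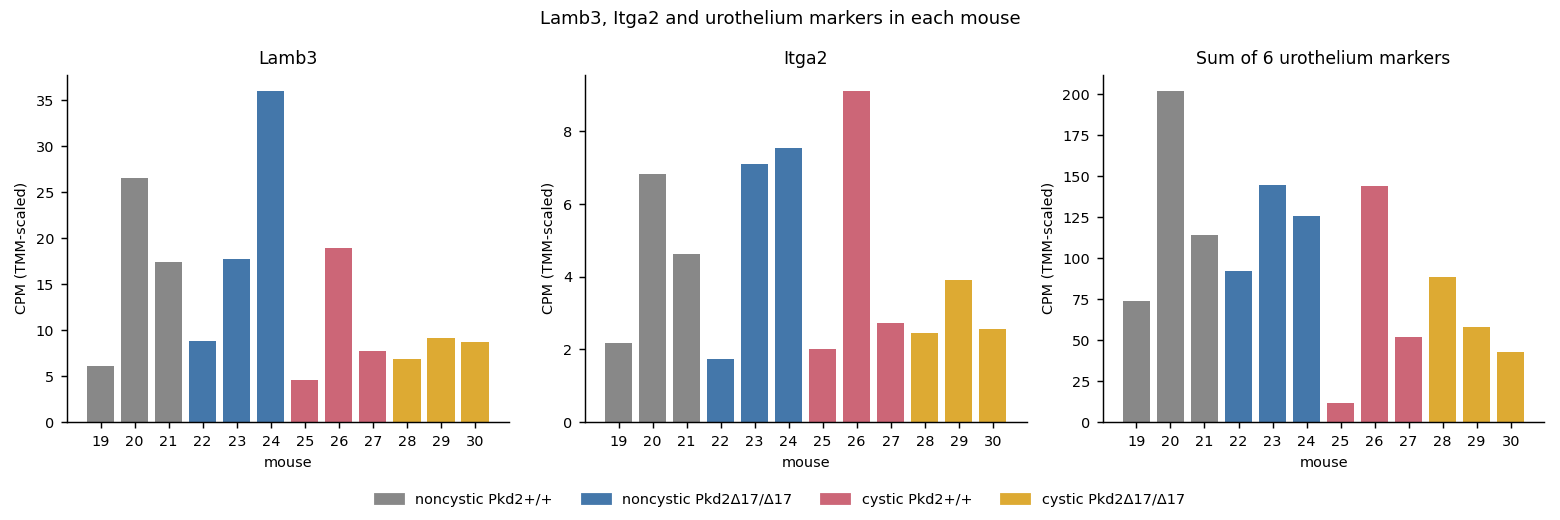
CPM of Lamb3 and Itga2 and summed CPM of 6 urothelium markers in each of the 12 mice (bars, coloured by group, axes from 0). Within the first 3 groups mice 19, 22 and 25 are the lowest in all 3 panels, and mouse 26 is the highest of the cystic mice in all 3.

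The genes that work with integrins and laminins moved in both directions. Over all tested genes 16.9% were called higher and 14.2% lower between cystic and noncystic Pkd2+/+ kidneys. The median log2 fold change of all tested genes was 0.02. For the deletion in cystic kidneys 2.23% of all tested genes were called. Of 23 other basement membrane genes 12 were called higher and 4 lower between cystic and noncystic Pkd2+/+ kidneys (median log2 fold change 0.29). The leading higher ones were Bcam, a laminin alpha5 receptor (1.21), Fras1, a protein of the epithelial basement membrane (1.40), and Agrn, the proteoglycan agrin (0.83). The leading lower ones were Col4a3 (-0.76) and Col4a4 (-0.46), type IV collagen chains of the mature glomerular basement membrane, and Tinag, a tubule basement membrane antigen (-0.59). Col4a3 was also the 1 gene of this list called for the deletion in cystic kidneys (0.56, SE 0.12, adjusted p = 0.0194), and stood at 261 ± 21.1 CPM in noncystic Pkd2+/+, 355 ± 32.4 CPM in noncystic Pkd2Δ17/Δ17, 154 ± 22.8 CPM in cystic Pkd2+/+ and 227 ± 27.5 CPM in cystic Pkd2Δ17/Δ17 kidneys (SD, n = 3).

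Of 25 other integrin ligands 17 were called higher and 2 lower in Pkd2+/+ kidneys (median 0.80), against 16.9% and 14.2% of all tested genes. The higher ones were led by Thbs2 (1.63), a thrombospondin, Icam1 (1.55), the endothelial and epithelial ligand of Itgb2 integrins, and Fn1 (1.33), fibronectin. The lower ones were the adhesion genes Jam3 (-0.57) and Icam2 (-0.49). Vcam1, the ligand of Itga4, was not called in that comparison (0.13, adjusted p = 0.605) and was the 1 ligand called for the deletion in cystic kidneys, at 29.7 ± 4.39 against 14.8 ± 2.77 CPM (-1.0, SE 0.17, adjusted p = 0.00718). Of 27 adaptors of the cytoplasmic side 14 were higher and 6 lower (median 0.28). Actn1, an actinin that links integrins to actin (1.49), Flna, filamin A (1.23), and Src, a kinase (0.80), led the higher ones, and Lims2 (-1.05), a partner of integrin-linked kinase, Tns2 (-0.77), a tensin, and Tln2 (-0.50), a talin, the lower ones. Actn1 (-0.49, adjusted p = 0.025) and Fermt3, the leukocyte kindlin (-0.60, adjusted p = 0.0254), were called lower with the deletion in cystic kidneys.

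Of the 10 tetraspanins and hemidesmosome or integrin partners 4 were higher and 2 lower in Pkd2+/+ kidneys, against 16.9% and 14.2% of all tested genes. Tspan8, a tetraspanin, rose by 1.36 on the log2 scale (adjusted p = 7.21e-08), Plec, the plectin that links Itgb4 to keratins, by 1.17 (adjusted p = 2.11e-06) and Cd151, the tetraspanin of laminin-binding integrins, by 0.27 (adjusted p = 0.0174), while Cd63, a lysosomal tetraspanin (-0.66), and Dst (-0.35), the latter a hemidesmosome plakin, fell. Tspan8 was called for the deletion in cystic kidneys (-0.47, adjusted p = 0.0211), as was Itgax among the leukocyte alpha subunits (-1.28, SE 0.30, adjusted p = 0.0336).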

How the data were processed

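RNA was extracted with miRNeasy and sequenced from whole kidneys of 12 mice. Per the methods and the submitters' processing notes, the authors trimmed reads with Trim Galore 0.6.3, aligned them to GRCm38 with STAR 2.5.3a and the deposited values are raw counts of reads for each gene, not normalized. The counted strand is not given in the sources used here, so reads of overlapping genes (10 of the 32 members) may be mixed. Rows with no gene name (343) held 0.0225% of reads. Of the identifiers, 99.93% were found in GENCODE M21, from which exon lengths, coordinates and 3′-UTRs were taken.

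The test was edgeR 4.0.16 in R 4.3.3: TMM factors, one mean per group, 8 residual degrees of freedom, the quasi-likelihood test and Benjamini-Hochberg adjustment. Genes with an average log2CPM (prior count 2) of at least -3, the cutoff of the study, were kept. Alternatives were library totals, DESeq2 1.42.0 size factors and Wald test, limma-trend (limma 3.58.1, prior count 3), no cutoff, filterByExpr, fits of only the groups compared, a covariate (Xist) for sex, which the labels do not give, and leaving out each mouse. The edgeR test of cystic Pkd2Δ17/Δ17 against cystic Pkd2+/+ kidneys was also run, in separate code, on simulated counts with known changes. The shares and the counts of members were not checked that way. Of the 32 members 1 is not reported here and is left out of every count of calls; all others were named, and from each partner list the 3 called genes with the smallest p in each direction for cystic against noncystic Pkd2+/+ kidneys and those called for the deletion in cystic kidneys. Members and lists were chosen with earlier results of these data known. Replicate libraries differed by more than sampling noise (chi-square per degree of freedom 9.65 to 26.8).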

Additional observations from a re-analysis of the deposited data

How the results depend on the processing

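No paired analysis was possible because the mouse numbers in the labels are not shared between groups. Of the 16 members called between cystic and noncystic Pkd2+/+ kidneys 12 were called in every alternative, as were 10 of 13 with the motif deleted and 1 of 2 for the deletion in cystic kidneys, and no called member changed sign. The calls that were lost were of Itga4, Itga8, Itgb1 and Lama2, of Itga3, Itga4 and Itgb1, and of Itgb4, in that order. Members not called by the main test gained a call as well, 6 of them in 9 values with Pkd2+/+ (Itga9, Itgav, Itgb3, Itgb5, Itgb7 and Lamb3), 7 in 19 values with the motif deleted (Itga2, Itga6, Itgav, Itgb5, Itgb6, Lamb3 and Lamc3) and 7 in 21 values for the deletion in cystic kidneys. The number of members called was 13 to 16, 11 to 13, 1 to 5 and 0 with 1 mouse left out for cystic against noncystic with Pkd2+/+, with the motif deleted, and for the deletion in cystic and in noncystic kidneys. For the deletion in cystic kidneys 8 members were called with no cutoff, 8 with DESeq2's Wald test and 4 with Xist as a covariate, 5 without mouse 25 or mouse 30 and 1 without mouse 27 or mouse 28. For the interaction 5 were called with no cutoff, 2 with DESeq2's Wald test and 0 to 1 with 1 mouse left out (1 without mouse 30). Calls over all genes moved too. For the deletion in cystic kidneys they were 549 of 24642 in the main test and 1460 of 54532 with no cutoff. They were 1128 with DESeq2's Wald test, 567 with Xist, and 856, 761, 130 and 127 without mouse 25, 30, 27 and 28. For the interaction they were 3 in the main test, 466 with no cutoff, 134 with DESeq2's Wald test and 57 without mouse 30. The cause was not tested.

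With library totals the median of all genes shifted by 0.158 (log2) in the Pkd2+/+ and 0.151 in the motif-deleted comparison, and the calls over all genes went from 4170 higher and 3495 lower to 6251 and 2468, and from 3164 and 2515 to 5334 and 1657. Against that shift members near 0 and not called changed sign. Between cystic and noncystic Pkd2+/+ kidneys, with library totals and with limma-trend, Itga1 stood at 0.07 and 0.07, Itga7 at 0.09 and 0.08, Itgb6 at 0.08 and 0.09 and Lamb2 at 0.14 and 0.13, Lamb2 at 0.02 with Xist as a covariate, and Itga2 at -0.01 with DESeq2's size factors. With the motif deleted Itga1 stood at 0.01 with both, and Itgb3 at -0.02 with DESeq2's size factors and its Wald test. With 1 mouse left out the ranges that crossed 0 were, for cystic against noncystic Pkd2+/+ kidneys, -0.94 to 0.40 (Itga2), -0.08 to 0.03 (Itga6), -0.22 to 0.03 (Itga7), -0.17 to 0.03 (Itgb6) and -0.09 to 0.08 (Lamb2). With the motif deleted they were -0.10 to 0.08 (Itgb3) and -0.04 to 0.26 (Lama1). For the deletion in cystic kidneys they were -0.12 to 0.06 (Itga1), -0.99 to 0.33 (Itga2), -0.04 to 0.05 (Itga5), -0.25 to 0.01 (Itga7), -0.04 to 0.31 (Itga9), -0.08 to 0.06 (Itgb1), -0.16 to 0.02 (Lama4) and -0.69 to 0.44 (Lamb3). Values that round to 0.00 were given no sign. Members with few reads, such as Itga11 (13 to 108) and Itga2 (32 to 186), have wide intervals, and 3 mice a group limit every test.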
